A study of Homo sapiens with 120 samples.

Results

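The nuclear genes that encode subunits of the respiratory chain and of ATP synthase were followed in RNA sequencing libraries of CFPAC-1 cells, an established line from a pancreatic ductal adenocarcinoma. Members were chosen by name: the NDUF genes of complex I, the UQCR genes and CYC1 of complex III, 9 COX genes and the ATP5 genes, without pseudogenes. The rule found 69 genes among the 27118 distinct gene names of the deposited table. By the complex their product belongs to, 34 are complex I, 10 complex III, 10 complex IV and 15 complex V (ATP synthase). NDUFA4 was counted with complex IV, where its protein resides despite its name. COX6C, which the rule also names, and the subunits encoded in the mitochondrial genome were not analysed here. UQCRHL, a retrocopy of UQCRH, was listed at 0 in bulk and in every raft of known cell number, reached at most 43.6 FPKM in any library and was too rarely detected to be tested, which left 68 members. Reads of UQCRH and of this copy can be hard to tell apart, so values of UQCRH are uncertain to that extent.

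The respiratory chain passes electrons from NADH and succinate to oxygen and pumps protons across the inner mitochondrial membrane, and ATP synthase uses the proton gradient to make ATP. Complex I oxidises NADH, complex III passes electrons from ubiquinol to cytochrome c, and complex IV (cytochrome c oxidase) reduces oxygen. Most subunits are encoded in the nucleus, translated in the cytosol and imported, and they assemble with the few core subunits made inside the mitochondrion. Pancreatic ductal epithelium and tumour lines derived from it express these genes as part of their basic metabolism.

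The study set up a way of picking single cells on microrafts, small releasable plastic elements, and compared it with the Fluidigm C1, a microfluidic capture device. Untreated cells were collected from rafts holding no cell (10 libraries), 1 cell (10) or 2 cells (10), from C1 chambers holding none (5), 1 cell (5) or 2 cells (5), and in bulk at about 10000 cells (4). A second experiment sorted rafts as proliferative or nonproliferative, with 8 libraries of each class in every arm: no treatment, saline, gemcitabine at 2 nM and gemcitabine at 5 nM. Gemcitabine is a nucleoside analogue used against pancreatic cancer, 7 water blanks accompanied the rafts, and SMARTer amplification followed by Nextera XT tagging was used throughout. The number of cells per raft is not known in the second experiment, so cell number and RNA per cell cannot be told apart there. Raft libraries of the first experiment came in 2 sets, named here by their titles as the RAFTS set and the OneCell set. The values are FPKM, fragments per kilobase of transcript scaled to the fragments of the library, and detection here means at least 1 FPKM. Counts were not given, so depth is unknown and no counting error can be attached to a value.

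In the isolation experiment nearly all members were detected wherever a cell was present. The 10 rafts with 1 cell had 65 to 68 members detected, all 10 rafts with 2 cells had 68, the 5 C1 libraries with 1 cell had 63 to 68, the 5 with 2 cells had 64 to 68, and bulk had 66 to 68. Empty rafts had 0 to 6 and water 0 to 13. Empty C1 chambers had 3 to 31, the most in replicates 1 and 2, where 25 and 31 members and 5501 and 7953 rows of the table were detected. Over the empty rafts all 68 members were higher in 1-cell rafts by a log2 of 1 or more, with a median of 7.59, against 87.6% of 7329 genes higher and 4.49% lower. Over the empty chambers 64 of 65 members were higher in 1-cell C1 libraries, with a median of 6.33, against 67.0% of 6821 genes higher and 3.47% lower. Genes had to be detected in at least 5 of the libraries compared, so most entered through the 1-cell libraries, which largely fixes these counts. Without this filter 68 of 68 members and 7674 of 14398 genes were higher over empty rafts, and 685 genes were lower. Over empty chambers these were 67 of 68 members and 7558 of 16090 genes, with 559 genes lower. In the blanks a single member could reach a very high value, as ATP5B did with 116385 FPKM in replicate 9 of the empty rafts. Epithelial keratin and adhesion markers of the line were present in the cell libraries, where their summed level ran from 1592 to 4741 FPKM in 1-cell rafts, 1911 to 6390 FPKM in 1-cell C1 libraries and 1307 to 1852 FPKM in bulk. CFTR was at 0 in bulk and 1-cell C1 libraries. In 1-cell rafts, 1-cell C1 libraries and bulk the highest sums of other markers were 16.1, 0.82 and 1.65 FPKM for 4 fibroblast genes, 4.31, 33.6 and 2.26 FPKM for 4 blood genes, and 9.10, 2.98 and 0 FPKM for 3 endothelial genes. The 3 keratinocyte genes KRT1, KRT10 and DMKN summed to 108 to 407 FPKM in 1-cell rafts, 7.81 to 161 FPKM in 1-cell C1 libraries and 211 to 320 FPKM in bulk. Of these genes CD3E, CDH5, VWF, DCN and COL1A2 were, besides KRT1, at 0 in all 3 groups.

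**Figure D1:**
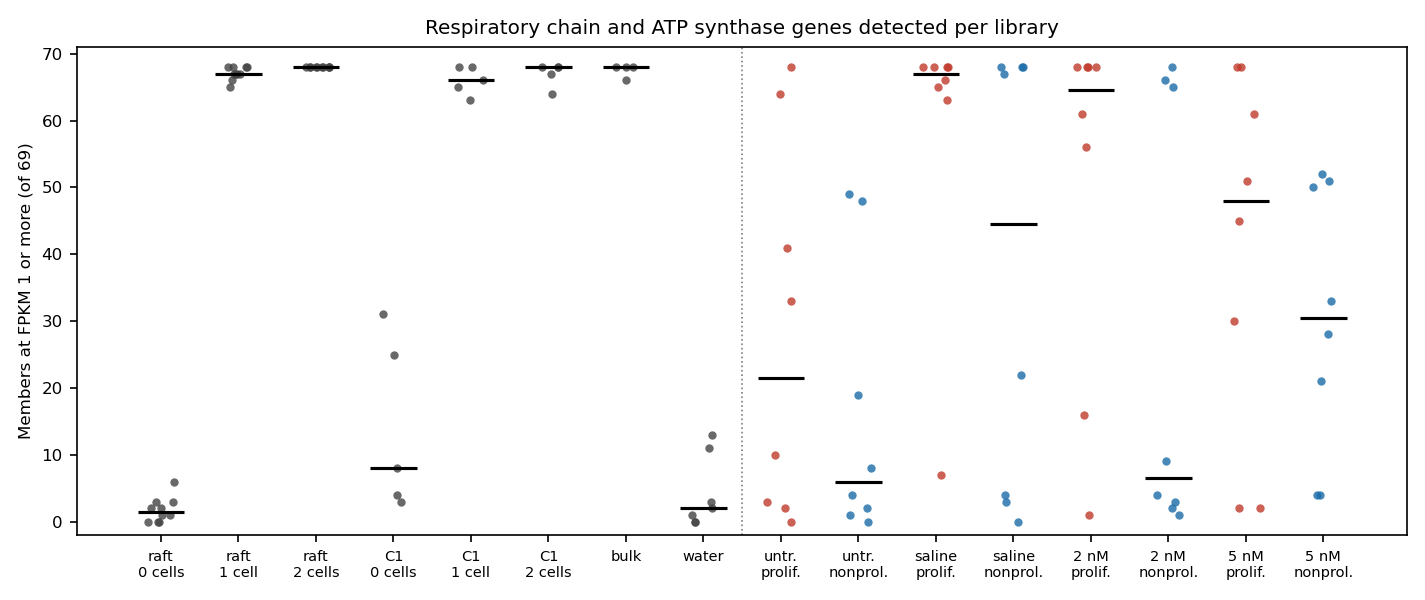
Number of members detected at an FPKM of 1 or more in each library (points) with the median of each group (bar), in the isolation experiment left of the dotted line and the proliferation experiment right of it (red, proliferative rafts; blue, nonproliferative rafts). Libraries with 1 or 2 cells and bulk lie between 63 and 68, blanks mostly under 14, and the sorted rafts spread over the whole range from 0 to 68.

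In bulk the members were among the more abundant transcripts and together held 4.95 ± 0.26% of all FPKM (SD, n = 4). FPKM is per length, so levels of different genes are listed side by side, but length is not the only influence. The difference between 1-cell rafts and bulk ran with the G and C content of the members (Spearman rho 0.69). Ranks between genes therefore describe these bulk libraries only. Complex V held 35.1% of the FPKM of the members, complex I 29.6%, complex IV 26.3% and complex III 9.04%. ATP5E, the epsilon subunit of the rotary stalk, was the highest at 2136 ± 298 FPKM (SD, n = 4), next to COX7C, a small membrane subunit of complex IV, at 2119 ± 589 FPKM, and these did not differ beyond their spread. ATP5E ranked 40 among all names. COX6A1 followed in complex IV at 1952 FPKM and ATP5O, the stator subunit that confers oligomycin sensitivity, at 1598 FPKM. NDUFS5 at 876 FPKM and NDUFB8 at 838 FPKM led complex I, and UQCRH, the hinge protein, at 1102 FPKM and UQCR10 at 830 FPKM led complex III. All these are small accessory or stalk subunits.

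NDUFV1 and NDUFS1, electron-transfer subunits of complex I, had the lowest values among members detected in bulk. NDUFV1, which binds NADH and the flavin, was listed at 0, 18.8, 19.7 and 21.9 FPKM in the 4 bulk libraries. NDUFS1, the largest iron-sulfur subunit, had 19.1, 19.2, 21.2 and 28.2 FPKM. ATP5D, the delta subunit of the rotary stalk, at 36.5 ± 18.03 FPKM was the lowest of complex V, below ATP5G3 at 155 ± 33 FPKM. The complex V genes ATP5G1, ATP5G2 and ATP5G3 encode the same mature subunit c of the membrane ring with different import signals. Among their transcripts ATP5G1 was the highest in bulk, with 1037, 1111, 1202 and 1436 FPKM. ATP5G2 had 464 to 691 FPKM and ATP5G3 120 to 199 FPKM. These ranges did not overlap, and protein was not measured. ATP5A1 and ATP5B, which form the catalytic head in equal number in the protein complex, were close at 384 and 376 FPKM. COX5A at 348 FPKM and NDUFA4 at 491 FPKM were lowest in complex IV, and UQCRB, which binds ubiquinone, was lowest of the detected complex III genes at 82.3 FPKM.

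Single cells gave the members a smaller share of the library than bulk did. They held 3.14 ± 0.50% of all FPKM in 1-cell rafts (SD, n = 10), 2.69 ± 0.23% in 1-cell C1 libraries (n = 5) and 4.95 ± 0.26% in bulk. Raft and C1 shares overlapped, and both lay below all 4 bulk libraries. Among the members, 1-cell rafts gave 33.5%, 10.8%, 24.4% and 31.4% to complexes I, III, IV and V, and 1-cell C1 libraries gave them 30.7%, 7.37%, 30.2% and 31.8%. Cells of one method share a culture or run as far as the labels tell, so each group counts as 1 sample, these comparisons carry no test, and a log2 difference of 1 in mean log2(FPKM + 1) was used to describe size. On this scale changes of low genes are understated.

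**Figure D2:**
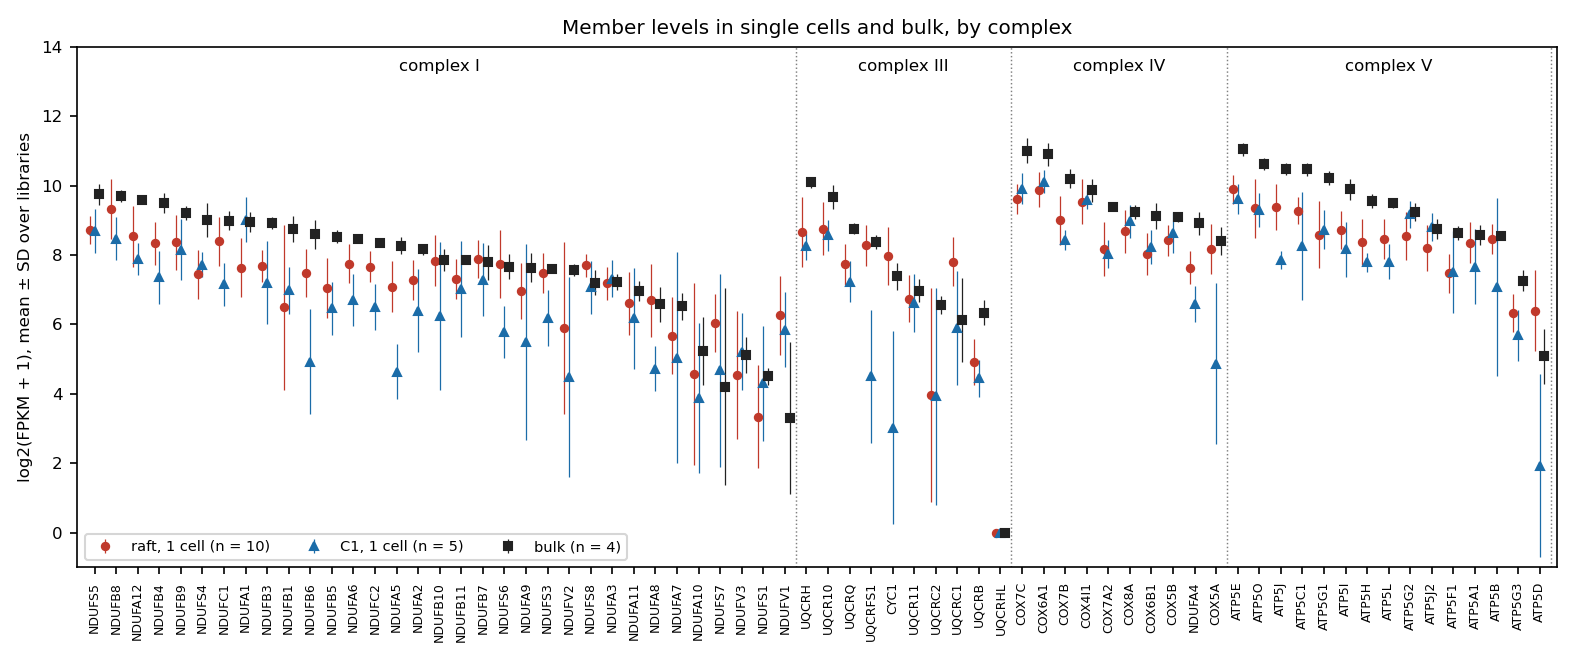
Mean log2(FPKM + 1) of the members shown with its SD over libraries in 1-cell rafts (red), 1-cell C1 libraries (blue) and bulk (black), ordered within each complex by the bulk level. ATP5E, COX7C and COX6A1 are highest, CYC1, UQCRFS1, COX5A and ATP5D drop out of line in the C1, and UQCRHL is at 0.

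Between rafts and the C1 the members differed unevenly, and the 4 largest differences were higher levels in rafts, 2 of them in the redox subunits of complex III. Of 68 members 21 were higher by a log2 of 1 or more in 1-cell rafts than in 1-cell C1 libraries and 1 was lower, against 26.1% of 10040 genes higher and 34.4% lower. The median difference was 0.58 over the members and -0.26 over all genes. Within the RAFTS set 19 members were higher and 2 lower, against 2697 and 2684 of 9100 genes. Within the OneCell set 24 were higher and 3 lower, against 1891 and 3367 of 7609 genes. CYC1, the cytochrome c1 subunit that hands electrons to cytochrome c, had 75.8 to 590 FPKM in the 10 rafts with a median of 223 FPKM, against 0, 0, 21.3, 32.0 and 48.3 FPKM in the 5 C1 cells. Its log2 difference was 4.95, and no raft was as low as any C1 cell. The share of all genes with ranges apart is not given, so no excess of members can be read from such ranges. UQCRFS1, the Rieske iron-sulfur protein of complex III, had 128 to 573 FPKM in rafts with a median of 324 FPKM, against 2.15, 14.3, 29.5, 34.4 and 117 FPKM in the C1, a log2 difference of 3.77 with ranges that were also apart.

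ATP5D and COX5A showed the same pattern with some overlap. ATP5D had 9.68 to 150 FPKM in rafts with a median of 120 FPKM, against 0, 0, 0, 23.5 and 31.4 FPKM in the C1, a log2 difference of 4.47. COX5A, a subunit on the matrix side of complex IV, had 120 to 616 FPKM in rafts with a median of 274 FPKM, against 2.74, 6.76, 63.9, 68.6 and 163 FPKM in the C1, a log2 difference of 3.30. NDUFB6, an accessory subunit of the membrane arm, differed by 2.56. NDUFA5, an accessory subunit of the matrix arm, ran from 68.3 to 358 FPKM in rafts, against 13.95 to 53.9 FPKM in the C1. The opposite end held NDUFA1, another membrane arm subunit, with 67.7 to 510 FPKM in rafts, against 312 to 889 FPKM in the C1, a log2 difference of -1.39. NDUFS1 (-0.96), NDUFV3 (-0.67), ATP5G2 (-0.63) and ATP5J2 (-0.60) followed, all with overlapping ranges.

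The libraries with 2 cells, which share no sample with those of 1 cell, again had ATP5D, CYC1, UQCRFS1 and COX5A in front. In 2-cell rafts 18 of 68 members were higher than in 2-cell C1 libraries and 2 were lower, against 28.6% of 11349 genes higher and 27.8% lower, and the member median was 0.43. Within the RAFTS set 14 were higher, against 3280 of 10353 genes, and within the OneCell set 21, against 2692 of 9486 genes. Without replicate 1 of the 2-cell C1 libraries 11 were higher, against 2944 of 10914 genes. ATP5D had 29.7 to 236 FPKM in rafts, against 0, 0, 0.82, 1.95 and 10.7 FPKM in the C1 (log2 difference 5.46). CYC1 had 143 to 614 FPKM in rafts, against 0, 9.23, 22.6, 25.7 and 30.0 FPKM in the C1 (4.69). UQCRFS1 had 110 to 346 FPKM in rafts, against 0 to 45.1 FPKM in the C1 (4.13), and COX5A had 204 to 390 FPKM in rafts, against 14.2 to 71.5 FPKM in the C1 (2.90). In each of these 4 genes the lowest raft stood above the highest C1 library, and here too the share of all genes with ranges apart is not given. NDUFB7 was next at 1.85, and NDUFA1 (-1.31) and ATP5G2 (-1.09) were lowest. Method, library pool and culture cannot be told apart in either comparison. A group of genes found high in blanks (PCSK5, TMEM45A and ASTN2) summed to 0 to 82.3 FPKM in 1-cell rafts, 160 to 274 FPKM in 1-cell C1 libraries and 6.13 to 13.97 FPKM in bulk, and its part in the member differences was not tested.

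**Figure D3:**
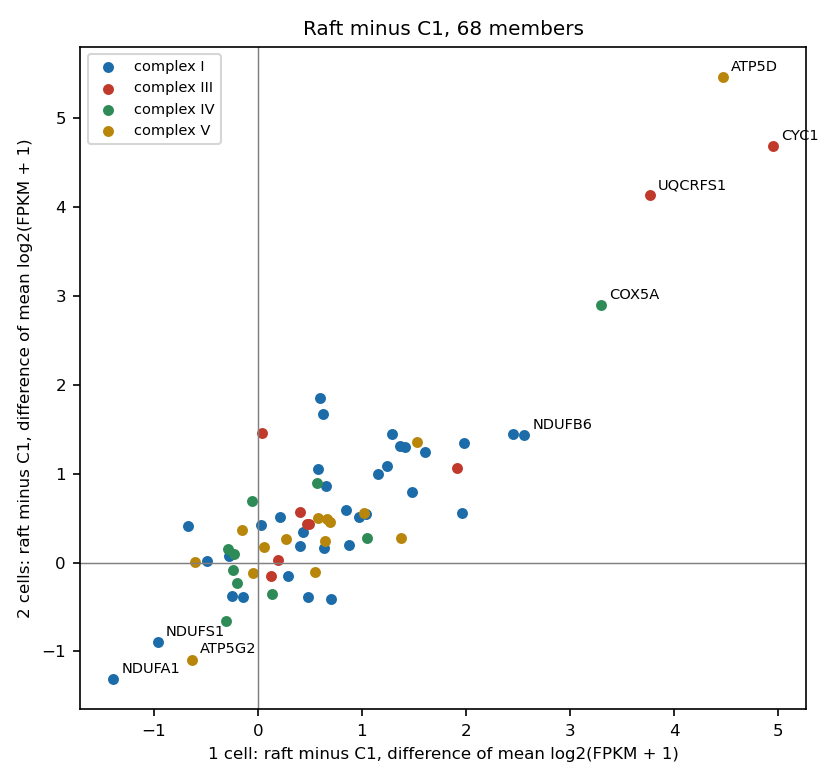
Difference of mean log2(FPKM + 1), raft minus C1, for 68 members in 1-cell libraries (x axis) and 2-cell libraries (y axis), coloured by complex. ATP5D, CYC1, UQCRFS1 and COX5A stand apart at 3.30 to 4.95 on the x axis and 2.90 to 5.46 on the y axis, and NDUFA1 is lowest on both.

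Against bulk, 1-cell rafts had 4 of 68 members higher and 31 lower by a log2 of 1 or more, against 7.42% of 9552 genes higher and 34.9% lower, with a median of -0.87 for members and -0.61 for all genes. Within the RAFTS set 34 members were lower, against 1678 of 6931 genes, and within the OneCell set 19, against 1558 of 4924 genes. Members were thus lower more often than all genes in the RAFTS set but not in the OneCell set. NDUFV1 had 10.51 to 187 FPKM in rafts with a median of 88.4 FPKM, against 0 to 21.9 FPKM in bulk, and differed by 2.96. NDUFS7, an iron-sulfur subunit next to the quinone site of complex I (1.84), UQCRC1, a core subunit of complex III (1.69), and ATP5D (1.32) were the next highest. Without replicate 1 of bulk, where NDUFV1 was at 0, 2 members were higher, against 514 of 9220 genes, and the largest difference was 1.86. The SD of NDUFS7 over the 4 bulk libraries was 2.84 in log2(FPKM + 1). UQCRC2, the other core subunit of complex III, was the lowest at -2.60, with 0 to 152 FPKM in rafts and a median of 19.5 FPKM, against 71.9, 96.3, 101 and 110 FPKM in bulk. It was undetected in 3 of the 10 rafts. NDUFB1 (-2.26), NDUFV2 (-1.67), ATP5G1 (-1.63) and NDUFS4 (-1.56) followed.

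In 1-cell C1 libraries 2 of 68 members were higher than in bulk and 47 lower, against 24.7% of 9540 genes higher and 35.5% lower, with a median of -1.48 for members and -0.31 for all genes. This comparison uses the same bulk libraries as that of the rafts. NDUFV1 (2.55) was the highest. Without replicate 1 of bulk 1 member was higher, against 2154 of 8808 genes, and the largest difference was 1.45. CYC1 (-4.36), UQCRFS1 (-3.87), NDUFB6 (-3.67), NDUFA5 (-3.63) and COX5A (-3.53) were lowest. CYC1 had 114, 168, 182 and 219 FPKM in bulk, where UQCRFS1 had 310, 310, 311 and 411 FPKM, and in both genes the bulk values lay within the range of the 1-cell rafts.

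The transcripts of the members were short, with a median of 770 bases over the 68 tested members, against 2641 bases over 8728 genes of the same comparison that could be matched to GENCODE release 29. Their content of G and C ran with the difference between 1-cell rafts and bulk, with a Spearman rho of 0.69 across the 68 members and 0.46 across the 8728 genes. ATP5D at 68.1%, NDUFS7 at 67.4%, NDUFV1 at 61.1% and UQCRC1 at 59.6% were among the members higher in rafts, and UQCRC2 had 45.5%. Between 1-cell C1 libraries and bulk rho was 0.47 across members, and between 1-cell rafts and 1-cell C1 libraries it was -0.01. The points share libraries and the scale of FPKM, so these values are descriptions, given without a p.

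**Figure D4:**
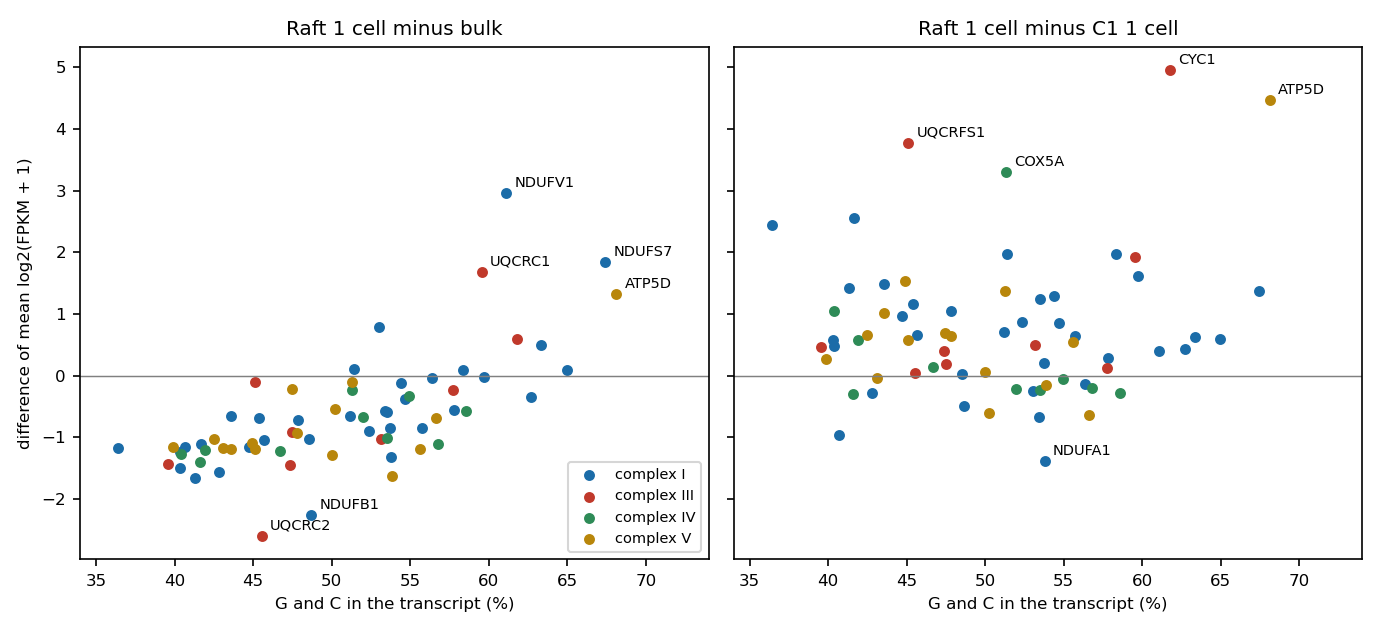
Difference of mean log2(FPKM + 1) for 68 members, 1-cell rafts minus bulk (left) and 1-cell rafts minus 1-cell C1 libraries (right), against the percentage of G and C in the transcript. Members rich in G and C lie higher on the left (Spearman rho 0.69), while no such order is seen on the right (rho -0.01).

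A second cell on the raft changed the level of few members. Averaged over the RAFTS and OneCell sets, 3 of 68 members were higher in rafts with 2 cells than with 1 and none was lower by a log2 of 1 or more, against 21.2% of 10529 genes higher and 1.37% lower. The median was -0.02 for members and 0.40 for all genes. UQCRC2 (2.02), NDUFS1 (1.33) and NDUFA10, an accessory subunit of complex I (1.10), were the 3, and NDUFV2 (0.96) and NDUFV3 (0.85) came next. UQCRC2 had 39.3 to 80.9 FPKM in 2-cell rafts, against 0 to 152 FPKM in 1-cell rafts, so the spread narrowed while the highest values lay in 1-cell rafts. UQCR11 (-0.71), NDUFB3 (-0.46), NDUFA6 (-0.45), NDUFB6 (-0.43) and COX7A2 (-0.42) were the lowest. Both sets of 1-cell rafts differed from each other by a log2 of 1 or more in 3 members upward and 3 downward in the RAFTS set, against 35.1% of 6849 genes higher and 9.99% lower. NDUFB1 (1.64), NDUFA10 (1.23) and NDUFV2 (1.19) were higher there, and NDUFB8 (-1.25), NDUFA12 (-1.23) and COX7A2 (-1.02) lower. The 3 higher ones became 1 without replicate 5 or 9 of the 1-cell rafts, 5 without replicate 2, 7 or 8 and 6 without replicate 6.

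Among genes with a mean of 100 FPKM or more the members varied somewhat less between single cells than other genes. The median SD of log2(FPKM + 1) was 0.67 for 59 members and 0.87 for all 1120 genes in 1-cell rafts, 0.59 and 0.81 in 1-cell C1 libraries, 0.43 and 0.48 in 2-cell rafts, and 0.25 and 0.28 in bulk. In 1-cell rafts 96.6% of these members and 86.2% of these genes were detected in every library.

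The sorted rafts addressed whether rafts with growing cells differ from rafts without growth, with and without gemcitabine. Proliferative rafts had 60 or more members detected in 17 of 32 libraries and at most 13 in 8, and nonproliferative rafts had 60 or more in 7 of 32 and at most 13 in 15. By arm, 60 or more members were detected in 2 proliferative and no nonproliferative rafts without treatment, in 7 and 4 with saline, in 5 and 3 at 2 nM, and in 3 and none at 5 nM. Between these ends lay 7 proliferative and 10 nonproliferative rafts. Detection of the members followed how closely a library resembled bulk. Over the 52 libraries with at least 1000 detected rows, used for all tests below, the number of members detected had a Spearman rho of 0.96 with the likeness to bulk (itself a Spearman rho across 10551 other genes) and of 0.81 with the number of rows detected. Many rows did not mean many members: replicate 3 of the saline nonproliferative rafts had 10424 rows and 22 members, and replicate 7 of the 5 nM nonproliferative rafts had 10198 rows and 28 members. Their likeness to bulk was -0.105 and -0.02.

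Averaged over the 4 arms, the members were higher in proliferative rafts. Of 68 members 23 rose and none fell at an adjusted p under 0.05 (limma on log2(FPKM + 1), two-sided, Benjamini-Hochberg over 11416 genes), against 11.5% of all genes that rose and 0.78% that fell. The median difference was 2.38 on the log2 scale over the members and 0.58 over all genes, and all 68 differences were above 0. Those that rose were 9 of 34 complex I genes, 5 of 9 of complex III, 4 of 10 of complex IV and 5 of 15 of complex V. The median likeness to bulk was 0.54 over the 26 proliferative libraries and 0.14 over the 26 nonproliferative ones, and medians of 6022 and 2800 rows were detected. The ductal epithelial markers summed to a median of 3644 FPKM in proliferative and 999 FPKM in nonproliferative rafts, and the genes high in blanks to 6.75 and 36.8 FPKM. No separate cultures are named within an arm, so the p-values measure only how rafts vary.

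**Figure D5:**
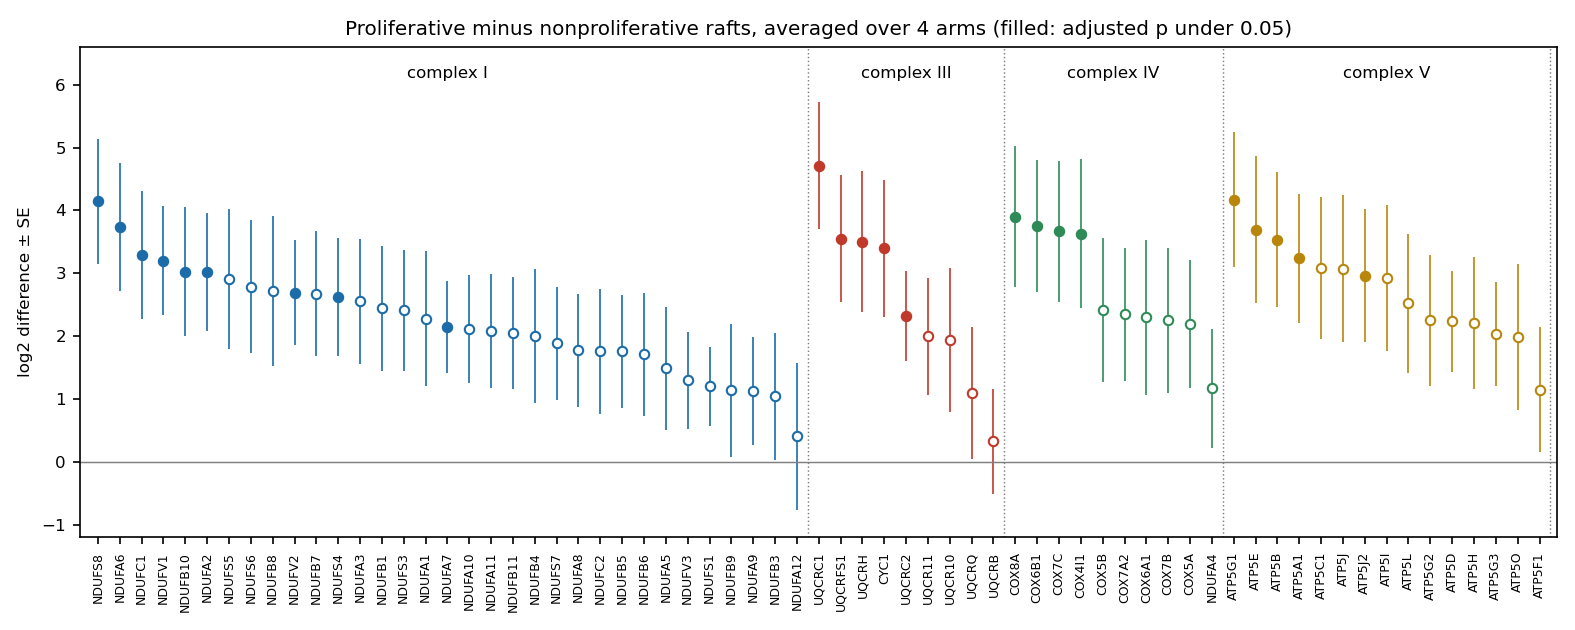
Log2 difference of log2(FPKM + 1), proliferative minus nonproliferative rafts averaged over 4 arms, with its SE for the members shown, ordered by complex. Filled points passed an adjusted p of 0.05 in limma, all points lie above 0, and UQCRC1 (4.71), ATP5G1 (4.17) and NDUFS8 (4.14) are highest.

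UQCRC1, a core subunit of complex III, was detected in 22 of 26 proliferative rafts (lowest 0, median 419, highest 1327 FPKM) and in 9 of 26 nonproliferative rafts (lowest 0, median 0, highest 614 FPKM). Its difference was 4.71 ± 1.01 (SE, limma adjusted p = 0.00249). By arm its median in proliferative and nonproliferative rafts was 406 and 0 FPKM without treatment, 502 and 196 FPKM with saline, 455 and 0 FPKM at 2 nM, and 267 and 0 FPKM at 5 nM. NDUFS8, an iron-sulfur subunit of complex I, was detected in 22 of 26 proliferative rafts (median 379 FPKM) and in 11 of 26 nonproliferative rafts (median 0), and differed by 4.14 ± 1.00 (limma adjusted p = 0.00527). At 5 nM it was found in 6 of 7 proliferative rafts and listed at 0 in all 7 nonproliferative rafts. In both genes the classes overlapped, since some proliferative rafts were at 0.

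The other members with the smallest p spread over all 4 complexes. In complex V, ATP5G1 differed by 4.17 ± 1.08 and ATP5B, the catalytic beta subunit, by 3.54 ± 1.07. In complex I, NDUFV1 differed by 3.20, NDUFA6 by 3.73, NDUFC1 by 3.29 and NDUFA2 by 3.02, of which the last 3 are accessory subunits. In complex IV, COX6B1, which bridges the dimer, differed by 3.76, COX8A by 3.90 and COX7C by 3.67. UQCRFS1 differed by 3.55. The adjusted p of these members lay between 0.00793 and 0.0250 (limma). UQCRC2 (2.32), NDUFV2 (2.69), ATP5A1 (3.24), ATP5E (3.70), UQCRH (3.503), CYC1 (3.40), COX4I1 (3.63), NDUFA7 (2.15), NDUFB10 (3.03), NDUFS4 (2.62) and ATP5J2 (2.96) also passed. NDUFA12 (0.40 ± 1.17) and UQCRB (0.32 ± 0.83) had the smallest differences. NDUFA12 reached 82122 FPKM in replicate 6 of the untreated nonproliferative rafts, a library with 8 members detected.

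The comparison changed when it was restricted to libraries that resembled bulk. Members detected had a Spearman rho of 0.96 with likeness to bulk, so this restriction also selects libraries that detect members. The 12 nonproliferative libraries kept had 48 to 68 members detected, against 0 to 68 in the 26 of the full fit. A smaller member difference was thus partly built into the choice, and nothing on its cause can be read from it. Among the 34 libraries with a rho of at least 0.25, 22 proliferative and 12 nonproliferative, 3 members rose and 1 fell, and the member median was 0.03 beside 0.32 for all genes. With the number of rows detected as a covariate in the 52 libraries 2 members rose, UQCRC1 by 3.86 (limma adjusted p = 0.0166) and NDUFS8 by 3.44 (adjusted p = 0.0344). The share of all genes called in these fits is not given here, so no excess of members can be read from these counts. In the 34 libraries UQCRC1 rose by 3.24 ± 0.64 (limma adjusted p = 0.00243), with 85.9 to 1327 FPKM and a median of 457 FPKM in proliferative rafts, against 0 to 614 FPKM and a median of 221 FPKM in nonproliferative rafts. CYC1 rose by 3.21 ± 0.73 (adjusted p = 0.0126) and NDUFS8 by 2.67 ± 0.71 (limma adjusted p = 0.0436), detected in 21 of 22 and 9 of 12 rafts. COX6A1, a complex IV subunit, fell by 2.49 there (SE 0.58, limma adjusted p = 0.0147), with a median of 1342 FPKM in proliferative and 2517 FPKM in nonproliferative rafts, while in the 52 libraries it had differed by 2.30 (adjusted p = 0.184). In the 34 libraries COX6A1 was at 0 in 2 of 22 proliferative rafts. Its lowest value in the 12 nonproliferative rafts was 1185 FPKM. The members held a median of 3.37% of all FPKM in these 22 proliferative libraries and 3.81% in the 12 nonproliferative ones. Leaving out 1 library of the 52 moved the count of 23 to 12 without replicate 3 or replicate 4 of the untreated proliferative rafts and to 35 without replicate 5 of that group.

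Sequence upstream of the start is shown for some of the members called higher in proliferative rafts. These hold, within 120 bases before the start, one of 3 motifs known from promoters of respiratory genes. Called members without such a match are not shown. The motifs were GCGCA, any 1 base and GCGC for NRF1 (nuclear respiratory factor 1), CCGGAAG for the ETS factors that include GABP, and ATGGCGG for YY1. Both strands were searched, so an ETS match can also read CTTCCGG, and overlapping matches of different motifs were each counted. NRF1 and GABP are known activators of genes for respiratory chain subunits. Lines give the RefSeq sequence of GRCh38.p14 from 5′ to 3′ toward the start of transcription, with matches in capitals. UQCRC1 lies at chr3:48609647-48609766 and UQCRFS1 at chr19:29213152-29213271 on the minus strand, and both hold the NRF1 motif. COX6B1 at chr19:35648203-35648322, COX8A at chr11:63974500-63974619 and UQCRH at chr1:46303578-46303697, all on the plus strand, hold the ETS motif.
UQCRC1: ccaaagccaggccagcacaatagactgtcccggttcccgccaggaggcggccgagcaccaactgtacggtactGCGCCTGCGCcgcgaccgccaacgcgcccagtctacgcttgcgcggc
UQCRFS1: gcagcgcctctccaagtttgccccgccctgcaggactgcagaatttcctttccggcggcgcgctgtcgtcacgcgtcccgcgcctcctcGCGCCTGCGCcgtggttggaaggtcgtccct
COX6B1: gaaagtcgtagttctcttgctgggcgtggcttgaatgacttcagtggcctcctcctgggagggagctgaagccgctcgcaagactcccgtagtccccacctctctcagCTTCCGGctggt
COX8A: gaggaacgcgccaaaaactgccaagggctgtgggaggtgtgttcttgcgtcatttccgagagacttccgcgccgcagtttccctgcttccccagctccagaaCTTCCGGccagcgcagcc
UQCRH: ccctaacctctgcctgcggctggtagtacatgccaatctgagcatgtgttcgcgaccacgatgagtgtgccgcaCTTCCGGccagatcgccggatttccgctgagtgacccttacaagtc

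Of the 69 members 56 had an entry in the promoter table, which covers 250 bases before to 50 bases after each start. The NRF1 motif was in 23.2% of these 56 windows and in 6.28% of all 27305 windows of the same length. The ETS motif was in 28.6% and 10.7%, the YY1 motif in 28.6% and 5.72%, and at least 1 of the 3 in 64.3% and 19.5%. Of the members called higher in proliferative rafts, ATP5G1, NDUFV1, COX7C, NDUFC1, NDUFA2, UQCRC2, ATP5A1, ATP5E and NDUFB10 had none of the 3 motifs in their windows. A link between motif and proliferation was not tested. A match to these letters describes the sequence and says nothing of binding.

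Within single arms no member passed the test, where 0.0263% of all genes rose at 2 nM and none in the other arms. In limma 11 members had an unadjusted p under 0.05 without treatment, 11 with saline, 18 at 2 nM and 3 at 5 nM, with 5 to 7 libraries per class. Counts at an unadjusted p, here and below, stand without the share of all genes, so no excess of members can be read from them. The member medians for proliferative minus nonproliferative rafts were 2.56 without treatment, 3.43 with saline, 3.36 at 2 nM and 1.18 at 5 nM. In libraries with a rho of at least 0.25 they were 0.16, 0.08, 0.05 and -0.31 in the same order, so that of the 5 nM arm changed sign. That restriction selects libraries by a measure that ran with member detection, so these smaller medians test nothing. The smallest p belonged to UQCRC1 without treatment (difference 6.71 ± 2.28, limma adjusted p = 0.470), to NDUFV2 with saline (4.70 ± 1.59, adjusted p = 0.416), to NDUFA6 at 2 nM (5.63 ± 1.94, adjusted p = 0.346) and to NDUFS8 at 5 nM (7.07 ± 1.91, adjusted p = 0.203). Tested directly, the proliferation difference at 5 nM minus that with saline passed for no member (smallest adjusted p = 0.999, limma; 4 with an unadjusted p under 0.05), around a median of -2.24, which was -0.35 at a rho of at least 0.25 and -0.03 with array weights. UQCR10, a small membrane subunit of complex III, had the smallest p there (-7.61 ± 3.09).

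Gemcitabine arms were compared over both classes, where treatment and library pool cannot be told apart. No separate cultures are named within an arm, so the p-values measure only how rafts vary. They do not test an effect of gemcitabine. At 5 nM 3 of 68 members were lower than with saline and none higher (limma adjusted p under 0.05), against 4.66% of 11416 genes lower and 0.0701% higher, with a median of -1.59 over the members and -0.77 over all genes. With rows detected as a covariate these were -0.25 and -0.14. The count of 3 of 68 is near the share of all genes that fell. ATP5D was lower by 4.02 (SE 1.09, limma adjusted p = 0.0242). At 5 nM 4 of 7 proliferative and 1 of 7 nonproliferative rafts had it, with medians of 5.07 and 0 FPKM, against 7 and 5 of 7 with saline, with medians of 131 and 60.3 FPKM. NDUFA7, an accessory subunit of complex I, was lower by 3.51 (SE 0.98, adjusted p = 0.0274 in limma). At 5 nM 3 of 7 proliferative rafts and no nonproliferative one had it, against 6 and 4 of 7 with saline. UQCRC2 was lower by 3.21 (SE 0.97, limma adjusted p = 0.0385). It was found at 5 nM in 2 of 7 proliferative rafts and in no nonproliferative one, against 6 and 4 of 7 with saline. In each of the 3 the arms overlapped at 0. Median likeness to bulk was 0.28 over the 14 libraries at 5 nM and 0.62 over the 14 with saline, and with rows detected as a covariate none of the 3 passed (limma, differences of -2.73, -2.44 and -2.09 for ATP5D, NDUFA7 and UQCRC2, adjusted p = 0.206, 0.208 and 0.301). In the libraries with a rho of at least 0.25 they stayed lower, by -5.05, -4.43 and -3.96 (adjusted p = 0.0112, 0.0156 and 0.0384, limma), and 7 members in all were lower. The share of all genes lower in that fit is not given here.

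The count of 3 depended on single libraries. It became 0 without replicate 6 or 7 of the saline nonproliferative rafts and 1 without replicate 5 of that group, or without replicate 5 or 8 of the 5 nM proliferative rafts. It became 9 without replicate 1 and 7 without replicate 4 of the saline nonproliferative rafts, 7 without replicate 2 of the 5 nM proliferative rafts and 6 without replicate 8 of the 5 nM nonproliferative rafts. ATP5D passed in 50 of the 52 fits with 1 library left out, NDUFA7 in 47 and UQCRC2 in 36.

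At 2 nM no member passed against saline in limma (2 with an unadjusted p under 0.05), with a median of -1.13 over members (-0.09 with rows detected as a covariate) and -0.52 over all genes, and ATP5D was again the lowest by p (-2.87 ± 1.09, adjusted p = 0.671). The 2 gemcitabine comparisons share the saline libraries. Between 5 nM and 2 nM no member passed in limma either (3 with an unadjusted p under 0.05), and UQCRC2 (-3.10) and NDUFA7 (-3.12) came closest at an adjusted p = 0.464 for both. Saline rafts stood above untreated ones with a member median of 2.22 and 1.10 over all genes. Likeness to bulk had a median of 0.62 with saline and 0.30 without treatment, rows detected a median of 7437 and 2416, and with rows detected as a covariate the member median was 0.41. No member passed there, although 26 had an unadjusted p under 0.05 in limma and NDUFA8, NDUFA7 and NDUFS3 reached an adjusted p = 0.0512, with differences of 4.87, 3.90 and 5.12, and 0.385% of all genes were higher. Members passed there once 1 library was left out, most without replicate 3 of the untreated proliferative rafts (13), without replicate 1 or 4 of the saline nonproliferative rafts (10 each), without its replicate 3 (8), and without replicate 4 of the untreated or replicate 8 of the saline proliferative rafts (7 each). Leaving out any of 11 other libraries gave 1 to 5. NDUFA8 had a median of 155 FPKM in 7 proliferative and 94.5 FPKM in 7 nonproliferative saline rafts, against 0 FPKM in both classes of untreated rafts, where 2 of 10 libraries detected it.

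Genes that work with the complexes were read beside the 11.5% of all genes that rose and the 0.78% that fell. They were read in the fit of 52 libraries alone, and their results under the alternatives are not given here. Median likeness to bulk was 0.54 in proliferative and 0.14 in nonproliferative rafts, and 0.28 at 5 nM and 0.62 with saline. Of the 12 members with the smallest p in the proliferation contrast, 2 still passed with rows detected as a covariate. In proliferative over nonproliferative rafts 5 of 16 TCA cycle genes rose and none fell, and the 4 with the smallest p were CS, citrate synthase (3.04), IDH3A and IDH3B of isocitrate dehydrogenase (3.16 and 3.06) and MDH2, malate dehydrogenase (3.61), at limma adjusted p between 0.00574 and 0.0216. Of 32 assembly factors 6 rose, among them BCS1L, which inserts the Rieske protein into complex III (2.75), ATPAF1, which helps to build the head of ATP synthase (2.84), the complex I factor NDUFAF4 (1.95) and SCO2, a copper chaperone of complex IV (2.22). SDHB of complex II (3.08) rose among 5 genes of complex II and cytochrome c, NDUFAB1, the acyl carrier protein of complex I (3.57), among 9 subunits and partners outside the rule, and GABPB1, a subunit of GABP (1.98), among 10 regulators of mitochondrial biogenesis. The counts of 1 of 9 and 1 of 10 are near the share of all genes. The median differences were 1.76 for the TCA cycle, 1.07 for assembly factors, 2.09 for complex II and cytochrome c, 2.04 for the partners and 0.80 for the regulators, beside 0.58 over all genes. COX6B2, the 1 of 7 tissue-specific isoforms that could be tested, had a difference of -0.84. At 5 nM against saline, where 4.66% of all genes fell, so did 1 of 9 partners, 3 of 16 TCA cycle genes and 3 of 32 assembly factors, and none of these lists had a gene that rose. NDUFAB1 fell by 5.31, the TCA genes IDH3G by 4.33, PDHB by 3.46 and SUCLA2 by 3.17, and the assembly factors BCS1L by 3.77, NDUFAF3 by 3.73 and SCO2 by 3.55 (limma adjusted p between 0.0119 and 0.0392).

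In 1-cell rafts against 1-cell C1 libraries the lists of related genes went different ways, and no test compared them with the members. All shares here stand beside 26.1% of all genes higher by a log2 of 1 or more, 34.4% lower and a median of -0.26. Of 31 assembly factors 13 were higher and 6 lower around a median of 0.09, with NDUFAF4 (4.04) and ATPAF1 (3.93) highest. Of 16 TCA cycle genes 7 were higher and 1 lower around a median of 0.79, with IDH3B (4.65) and IDH3A (2.58) highest. Complex II and cytochrome c had 3 of 5 higher and none lower (median 1.27), and the partners outside the rule 3 of 9 higher and none lower (median 0.40). Of 9 biogenesis regulators 3 were higher and 2 lower around a median of -0.63, with GABPB1 (4.06) and ESRRA (1.42) highest and TFB1M (-2.12) lowest.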

How the data were processed

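RNA sequencing of 120 CFPAC-1, blank and water libraries was given as 1 table of FPKM values, which the authors made with RSEM on hg19 per the submitters' processing notes. Other steps and versions are not given in the sources used here. Column totals ran from 339644 to 817990 FPKM, and without counts the depth of each library is unknown.

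Names on several rows kept the row with the highest mean. The proliferation and gemcitabine comparisons used limma 3.58.1 (R 4.3.3, trended variance, two-sided, Benjamini-Hochberg) on log2(FPKM + 1), in 1 fit of 8 groups. It held the 52 of 64 libraries with at least 1000 rows at 1 FPKM or more and 11416 genes that reached 1 FPKM in 8 or more. The method was tested on simulated data. Isolation groups were compared without a test, as differences of mean log2(FPKM + 1) for genes detected in at least 5 libraries. Likeness to bulk was a Spearman correlation with mean bulk over 10551 genes without the members. FPKM scales each value to the fragments of its library, so a few very high genes lower all others.

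Members, pathway lists and tests were chosen with earlier results of these data known. The text names the members that passed (the 12 with the smallest p in full), the 5 highest and 5 lowest of each isolation comparison, the 2 highest and 2 lowest of each complex in bulk, and up to 4 genes of each other list. One member enters all counts and medians but is not reported here by name or in the plots with gene names. COX6A1, NDUFB6 and NDUFA12 were singled out in places after their values were seen. Alternatives changed the pseudocount to 0.1, the filter, the libraries, the scaling, the covariates and the treatment of repeated names.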

Additional observations from a re-analysis of the deposited data

Results flagged for a closer look

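Several measures (members detected, their share of all FPKM and the FPKM of single genes) were checked in groups of 4 to 10 libraries, which gave 91 combinations of a group and a measure. In 12 of them a library stood far from the rest by Dixon's test at the 95% level, which chance gives in about 1 of 20, and combinations on the same libraries are not independent. No cause was tested for any of them.

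For the number of members detected, these were replicate 1 of the 2-cell C1 libraries with 64 members, replicate 1 of bulk with 66, replicate 2 of the empty rafts with 6 and replicate 5 of the saline proliferative rafts with 7. In the last of these the members held 12.4% of all FPKM, the value farthest from the other saline proliferative rafts. Replicate 4 of the empty C1 chambers stood apart with 7.99%, in a library where NDUFB8 alone reached 50564 FPKM.

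Single genes gave the other 6. ATP5D was low in replicate 10 of the 1-cell rafts at 9.68 FPKM. UQCRFS1 was high in replicate 3 of bulk at 410.53 FPKM and low in replicate 5 of the 2-cell rafts at 109.53 FPKM. NDUFV1 was listed at 0 in replicate 1 of bulk and was low in replicate 7 of the 1-cell rafts at 10.51 FPKM. UQCRC1 was low in replicate 3 of the 1-cell rafts at 70.29 FPKM.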

How the results depend on the processing

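Of 132 counts of members recomputed under alternatives, 106 stayed within 1.5 times the reported count, as did 524 of 563 with 1 library left out. The cause of the shifts was not tested. Counts in this section stand without the share of all genes in the same setting. They do not show whether members moved more than other genes. The 23 members higher in proliferative rafts became 13 without the filter, 7 in all 64 libraries, 3 in libraries with a rho of at least 0.25, 13 after quantile normalization, 2 with rows detected as a covariate and 48 with array weights, and 12 to 35 with 1 library left out. The member median ranged from 0.03 to 3.43 over 9 alternatives, and COX7C turned to -0.44 at a rho of at least 0.25. UQCRC1 and NDUFS8 passed in each of the 52 fits with 1 library left out. Within arms, the count of 0 became 4 at a rho of at least 0.25 and 1 with array weights without treatment, 53 with array weights at 2 nM, and 2 at a rho of at least 0.25 at 5 nM, where leaving out libraries gave 0 to 1 (replicate 5 of the proliferative rafts).

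The 3 members lower at 5 nM than with saline became 5 at a pseudocount of 0.1, 7 at a rho of at least 0.25, 1 after quantile normalization, 0 with rows detected as a covariate (limma, adjusted p) and 27 with array weights, and 0 to 9 with 1 library left out. Array weights gave 1 member for 2 nM against saline, and a rho of at least 0.25 gave 2 for 5 nM against 2 nM. The count of 0 for saline over untreated became 9 at a pseudocount of 0.1, 27 in all 64 libraries, 16 at a rho of at least 0.25 and 46 with array weights, and 0 to 13 with 1 library left out.

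Members lower in 1-cell rafts than bulk (31) became 19 in the OneCell set and 13 after quantile normalization. The 3 higher with 2 cells than with 1 became 6 in the OneCell set and 5 at a pseudocount of 0.1, and the 3 higher in the RAFTS set became 5 at that pseudocount and 1 to 6 with 1 library left out. Leaving out libraries gave 42 to 64 members higher in 1-cell than in empty C1 chambers, where fewer members then met the filter, and 11 to 20 higher in 2-cell rafts than in 2-cell C1 libraries.

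No paired analysis was possible because no pair of compared groups shares numbered rafts, cultures or days in the labels. Unknown depth limits all values near 0.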
